A study of Mus musculus with 20 samples.

Results

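The acute phase proteins described here are plasma proteins, made largely by hepatocytes, whose levels move during infection and tissue injury. They were followed as 10 genes chosen by name, namely *Saa1*, *Saa2*, *Saa3*, *Orm1*, *Orm2*, *Hp*, *Hpx*, *Lcn2*, *Crp* and *Apcs*, and every probe set annotated to one of them was used. This gave 11 of the 45101 probe sets, and 10 of the 18194 genes with a probe set of their own. One set of livers came from *IMP2-2* transgenic mice (tg, 10 arrays), which carry the p62/IMP2-2 splice variant of the mRNA binding protein IGF2BP2 as a liver-specific transgene. The other livers came from wild-type mice (wt, 10 arrays). All mice were untreated, 5 weeks old and on the C57Bl6J/DBA2 background. The sources used here do not name the promoter that drives the transgene. Whole liver RNA was read on Affymetrix Mouse Genome arrays. Values are log2 intensities after RMA, so that 1 unit is a 2-fold difference, and levels of different probe sets are not compared with each other.

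Some arrays stood apart from their labels. The wt arrays wt_1407_2 and wt_1420_6 differed over all probe sets by an SD of only 0.168 log2 units, and wt_1407_5 and wt_1420_7 by 0.172, where other wt pairs differed by 0.228 to 0.401. Each of these pairs was counted once in wt means and SDs (n = 8), while the linear model kept all 20 arrays, so a fitted difference need not equal the difference of the printed means. The model counts the nearly identical arrays as separate, which can make its p-values too small. With each pair averaged, 276 probe sets passed in limma at an adjusted p below 0.05, against 1149 with all arrays. Across genotypes, tg_1386_9 and wt_1386_4 were the closest pair (0.155, next 0.228) and were kept under their labels. Array names carry a number after the genotype, such as tg_1371 and wt_1371, and 6 such numbers occur in both genotypes. Their meaning is not stated. *Xist*, the RNA of the inactive X chromosome in females, lay between 3.51 and 4.65 in tg and between 3.76 and 4.74 in wt arrays, so the arrays did not split by sex. *Eif2s3y*, a Y-linked gene, lay between 8.95 and 9.57 in tg and between 8.92 and 9.17 in wt arrays. All arrays thus had the pattern of male livers. The labels do not say that arrays are separate litters or extractions, so p-values measure the spread between these arrays. The number of arrays limits the precision.

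In the acute phase, interleukin-6 binds its receptor on hepatocytes, engages the shared chain encoded by *Il6st* and activates STAT3, while interleukin-1 acts through NF-κB and C/EBP factors. Serum amyloid A and orosomucoid genes need both signals for a full response. Type I interferons use related kinases but act on another set of genes. The question here was whether the interferon genes of tg livers were higher together with the acute phase genes.

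Of the 10 acute phase genes, 1 passed the test, *Hpx*, which was higher in tg livers, and 0 were lower (limma, adjusted p below 0.05 over all probe sets). Among all 18194 genes, 2.98% passed as higher, 0.967% as lower and 3.95% in either direction, and among all 45101 probe sets 1.88% were higher, 0.663% lower and 2.55% either, so 1 of 10 rests on a single gene. At an unadjusted p below 0.05 in limma, 3 of 10 were higher (*Hpx*, *Lcn2* and *Crp*) and 0 lower, where 13% of all genes were higher and 25.2% differed in either direction (9.61% and 20.4% of all probe sets). Fitted differences were positive for 9 of 10 genes, against 42.8% of all genes and 40% of all probe sets. Their median log2 fold change was 0.15, against -0.02 over all genes. The genes are not independent of each other, and no test was made on them as a group. In contrast, 17 of 17 interferon genes passed as higher, with a median of 1.26. That list was chosen with earlier results of these data known, so its count is no test of an interferon response.

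**Figure D1:**
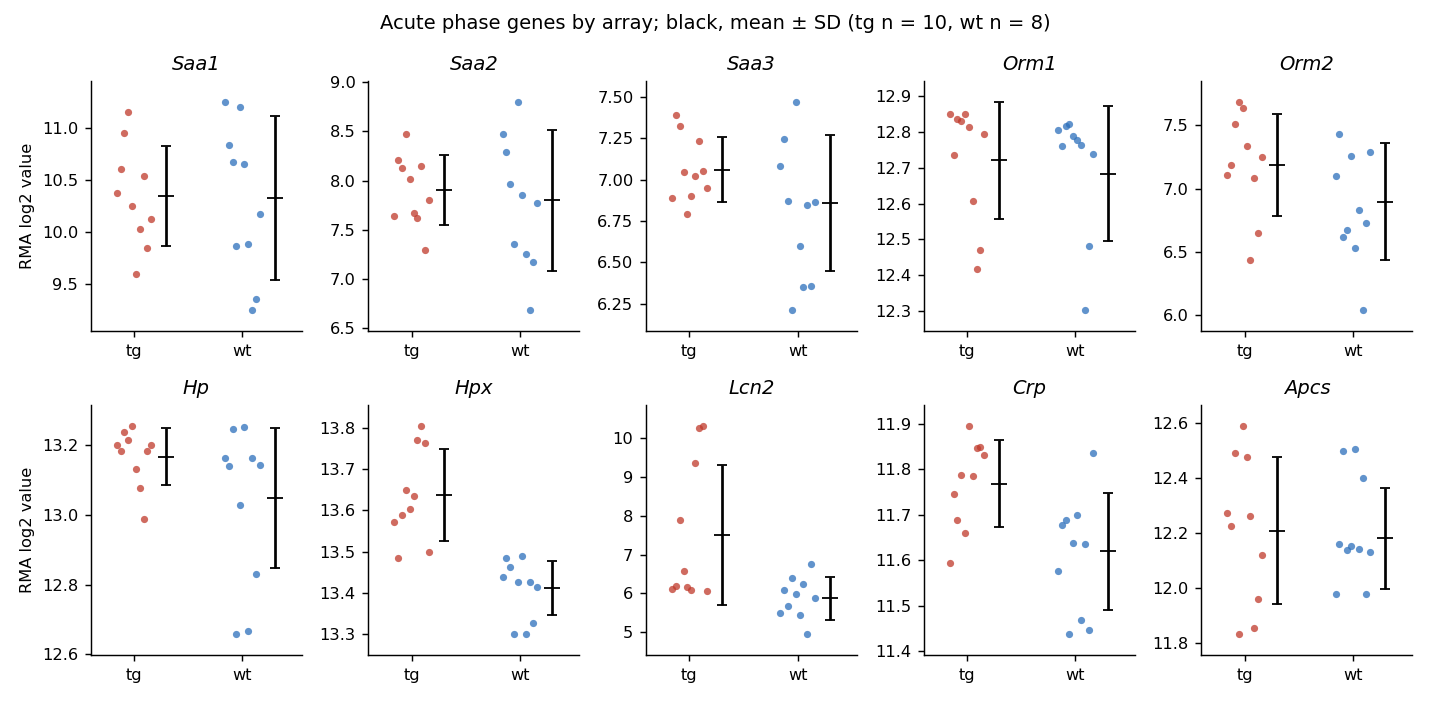
RMA log2 values of the 10 acute phase genes (y axes, 1 scale per gene) in each tg array (red, left) and wt array (blue, right). Black marks show mean ± SD with n = 10 tg and n = 8 wt, nearly identical wt arrays counted once. *Hpx* separates the genotypes almost completely, *Lcn2* is high in 3 tg arrays, and the other genes overlap.

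*Saa1* and *Saa2* encode serum amyloid A apolipoproteins, which bind to HDL and are among the most strongly induced acute phase proteins of mouse liver. Neither differed between the genotypes beyond the spread. *Saa1* (probe set 1450788_at) ranged over 9.60 to 11.15 in tg arrays (median 10.31) and over 9.25 to 11.25 in wt arrays (median 10.41). No tg array lay above all wt arrays, and the highest and the lowest *Saa1* values were both wt. The means were 10.35 ± 0.48 in tg (SD, n = 10) and 10.33 ± 0.79 in wt (n = 8), and the fit put the difference at 0.03 log2 units (SE 0.251, limma adjusted p = 0.959). The 95% interval of the difference ran from -0.49 to 0.55, which corresponds to a fold between 0.713 and 1.47.

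*Saa2* (1449326_x_at) did not pass either. It ranged over 7.29 to 8.48 in tg (median 7.91) and over 6.68 to 8.80 in wt (median 7.81), and differed by 0.14 on the log2 scale (SE 0.216, adjusted p = 0.758). Its wt range of 2.12 enclosed the whole tg range of 1.18. A second probe set annotated to *Saa1* (1419075_s_at) gave 0.06 (SE 0.251, adjusted p = 0.923). Its annotated target is the RefSeq transcript of *Saa2*, so this probe set cannot be assigned to one of the genes. It correlated with the *Saa2* probe set at r = 0.91 over tg arrays (n = 10) and 0.98 over wt (n = 8), and with the first *Saa1* probe set at 0.97 and 0.995.

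The 250 bases before and 50 bases after the RefSeq starts of *Saa1* and *Saa2* (GRCm38.p6) are shown because the probe sets of these neighbouring genes moved together from liver to liver. The suffix of the *Saa2* probe set marks possible cross-hybridization, so the 2 probe sets may share signal. Capitals mark the C/EBP-type motif TTGNNCAA, searched on both strands together with the STAT-type motif TTCNNNGAA and an interferon-type motif (GAAA, any 2 bases, GAAA), and no matches overlapped. The windows lie on the minus strand at chr7:46742931-46743230 for *Saa1* and on the plus strand at chr7:46751583-46751882 for *Saa2*.
Saa1: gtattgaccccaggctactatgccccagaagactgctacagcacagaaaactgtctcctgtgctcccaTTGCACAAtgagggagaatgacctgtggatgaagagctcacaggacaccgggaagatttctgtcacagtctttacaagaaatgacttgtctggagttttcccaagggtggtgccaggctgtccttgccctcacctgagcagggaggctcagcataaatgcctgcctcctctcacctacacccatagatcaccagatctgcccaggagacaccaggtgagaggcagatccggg
Saa2: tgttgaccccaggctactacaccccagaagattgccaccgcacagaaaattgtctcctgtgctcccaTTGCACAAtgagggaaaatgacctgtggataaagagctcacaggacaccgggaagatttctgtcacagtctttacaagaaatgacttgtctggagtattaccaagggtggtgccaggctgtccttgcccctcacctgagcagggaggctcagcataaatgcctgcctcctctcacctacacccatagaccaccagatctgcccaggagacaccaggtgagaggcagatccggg
Aligned end to end, the windows were identical at 287 of 301 positions (95.3%), where the other pairs among the 8 acute phase genes with a window reached at most 54.2%. Both hold TTGCACAA, at 182 bases before the start of *Saa1* and 183 bases before that of *Saa2*. The C/EBP-type letters occur in 6.4% of all 32851 promoter windows of the same length, and in 4 of the 8 acute phase windows (*Saa1*, *Saa2*, *Orm2* and *Lcn2*).

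*Saa3* (1450826_a_at), a serum amyloid A gene that in mice is made largely by macrophages and fat cells, had 6.79 to 7.39 in tg arrays (median 7.04) and 6.21 to 7.47 in wt arrays (median 6.86). Of the tg arrays, 9 of 10 lay above the wt median, but none above the highest wt array. Its fitted difference was 0.27 (SE 0.134, adjusted p = 0.260). Its promoter window was the only one of the 8 with the interferon-type letters (GAAAGAGAAA, 125 bases before the start). These letters occur in 3.44% of all windows and in 9 of the 15 interferon genes with a window. A match describes the letters only.

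*Orm1* and *Orm2* encode orosomucoids, also called α1-acid glycoproteins, which carry drugs and dampen immune cells. *Orm1* (1451054_at) showed 12.42 to 12.85 in tg (median 12.80) and 12.30 to 12.82 in wt (median 12.77). The difference of 0.01 (SE 0.074, adjusted p = 0.934) was within the spread, although 4 tg arrays lay above all wt arrays. Its low values came from both genotypes and mostly from 1 label number. These were 12.42 and 12.47 in tg_1423_2-8_1 and tg_1423_2-8_4, and 12.30 and 12.48 in wt_1423_2-8_3 and wt_1423_2-8_9, with 12.61 in tg_1420_4 as the next lowest. *Orm2* (1420438_at) had 6.43 to 7.69 in tg (median 7.22) and 6.04 to 7.44 in wt (median 6.78). 3 tg arrays lay above all wt arrays and 1 wt array below all tg arrays. The tg livers differed by 0.34 (SE 0.171, adjusted p = 0.270), which was within the spread.

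Haptoglobin and hemopexin clear free hemoglobin and free heme from plasma. *Hpx*, the hemopexin gene (1423944_at), was the acute phase gene that passed. In tg livers it measured 13.57 in tg_1371_2, 13.49 in tg_1386_9, 13.59 and 13.65 in tg_1407_3 and tg_1407_9, 13.60, 13.64 and 13.77 in tg_1420_12, tg_1420_14 and tg_1420_4, 13.81 and 13.76 in tg_1423_2-8_1 and tg_1423_2-8_4, and 13.50 in tg_14231_6. In wt livers it measured 13.44 in wt_1371_4, 13.49 in wt_1386_4, 13.46 and 13.30 in wt_1407_2 and wt_1407_5, 13.43, 13.49 and 13.30 in wt_1420_1, wt_1420_6 and wt_1420_7, 13.43 and 13.33 in wt_1423_2-8_3 and wt_1423_2-8_9, and 13.42 in wt_14231_2. In all, 9 of 10 tg arrays lay above every wt array, and the tenth, tg_1386_9, is the array that closely resembles wt_1386_4. The means were 13.64 ± 0.11 in tg (SD, n = 10) and 13.41 ± 0.07 in wt (n = 8).

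*Hpx* was thus higher in tg by 0.23 log2 units (SE 0.047, limma adjusted p = 0.0144), which is 1.17-fold with a 95% interval of 1.10 to 1.25. A permutation test over 100000 relabelings of the arrays gave p = 4e-05, and the exact test over all 43758 splits with nearly identical arrays averaged gave p = 0.00016 (both two-sided). The call held in all 20 fits that left out 1 array, and narrowly with nearly identical wt arrays averaged (limma adjusted p = 0.0477). It was lost without the 4 tg_1423_2-8 and wt_1423_2-8 arrays, which hold 2 of the 3 highest tg values (0.19, adjusted p = 0.135). It was also lost with the 3 highest tg arrays, which include tg_1420_4, left out (0.17, adjusted p = 0.110). The *Hpx* promoter window, on the minus strand at chr7:105600067-105600366, holds none of the 3 motifs searched and is given here in lower case throughout.
Hpx: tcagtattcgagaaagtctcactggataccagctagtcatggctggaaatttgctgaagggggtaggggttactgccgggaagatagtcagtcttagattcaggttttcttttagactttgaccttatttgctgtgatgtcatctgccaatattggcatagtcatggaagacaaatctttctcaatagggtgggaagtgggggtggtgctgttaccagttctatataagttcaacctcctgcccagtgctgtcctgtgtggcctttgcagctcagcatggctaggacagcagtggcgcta
*Hp*, the haptoglobin gene (1448881_at), had 12.99 to 13.26 in tg (median 13.19) and 12.66 to 13.25 in wt (median 13.14). The 2 lowest values, 12.66 and 12.67, belong to the nearly identical arrays wt_1407_5 and wt_1420_7. The difference of 0.14 (SE 0.075, adjusted p = 0.305) did not pass.

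*Lcn2* encodes lipocalin 2, which withholds iron from bacteria by binding their siderophores and is made by neutrophils and by stimulated hepatocytes. It had the highest fitted difference of the 10 genes and the widest spread. In tg livers *Lcn2* (1427747_a_at) was at 10.33 in tg_1423_2-8_4, 10.26 in tg_1423_2-8_1 and 9.36 in tg_1420_4. tg_1407_3 had 7.88, and the other 6 tg arrays had 6.05 to 6.58. In wt livers it was at 4.95 to 6.76 (median 5.92). So 4 of 10 tg arrays lay above all wt arrays, and the other 6 overlapped with them. The means were 7.50 ± 1.82 in tg (SD, n = 10) and 5.87 ± 0.55 in wt (n = 8), and their fitted difference of 1.61 (SE 0.546, 95% interval 0.48 to 2.75) did not pass in limma (adjusted p = 0.103). Taken alone, the permutation test gave p = 0.00831 and the exact test with averaged arrays p = 0.0252, neither adjusted for the number of genes. Without the 3 arrays of the highest values, a choice that lowers the difference by construction, it was 0.55 (adjusted p = 0.437). Without the tg_1423_2-8 and wt_1423_2-8 arrays the difference was 0.91 (adjusted p = 0.325).

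The *Lcn2* promoter window, on the minus strand at chr2:32387690-32387989, is shown with its C/EBP-type letters in capitals, 216 bases before the start.
Lcn2: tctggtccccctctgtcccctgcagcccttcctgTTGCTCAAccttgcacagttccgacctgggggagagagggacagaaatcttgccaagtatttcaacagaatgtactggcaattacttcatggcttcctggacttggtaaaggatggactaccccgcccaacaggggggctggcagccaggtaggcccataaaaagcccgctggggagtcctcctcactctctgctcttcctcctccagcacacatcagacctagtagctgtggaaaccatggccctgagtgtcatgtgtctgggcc
Markers of neutrophils, which also make lipocalin 2, were read beside it. *S100a8*, a calcium-binding protein of neutrophil cytoplasm, was at 8.82 in tg_1420_4, 8.04 in tg_1423_2-8_1 and 7.77 in tg_1423_2-8_4. It was at 7.78 and 7.65 in the nearly identical arrays wt_1407_5 and wt_1420_7, where *Lcn2* was 6.39 and 6.23. Over the list, 0 of 9 measured neutrophil markers passed in limma (0 also at an unadjusted p below 0.05 and in the Wilcoxon test). Among all genes 3.95% passed in limma and 25.2% had an unadjusted p below 0.05. The list mean ranged over 4.52 to 5.90 in tg and 4.54 to 5.34 in wt arrays. Its highest values were 5.90 in tg_1420_4 and 5.38 in tg_1423_2-8_1, both high in *Lcn2*. Next came 5.34 and 5.32 in the nearly identical wt_1407_5 and wt_1420_7, while tg_1423_2-8_4 had 5.12. Of the 9 markers, 6 had a mean above 4.53, the median of all probe sets (*S100a8*, *S100a9*, *Ngp*, *Camp*, *Elane* and *Cxcr2*). The means of *Ltf*, *Mpo* and *Mmp8* lay below it in both genotypes. The highest arrays of *Mpo* were at 5.56 in tg and 4.26 in wt, and those of *Ltf* at 4.61 and 4.66. The part of neutrophils in the *Lcn2* values was not tested. In whole liver, more cells of a type and more RNA per cell cannot be told apart.

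*Crp* and *Apcs* encode the pentraxins C-reactive protein and serum amyloid P component. In mice serum amyloid P is the strongly induced acute phase pentraxin, while C-reactive protein changes little. *Crp* (1421946_at) had 11.60 to 11.90 in tg (median 11.79) and 11.44 to 11.84 in wt (median 11.64), with 3 tg arrays above all wt arrays and 4 wt arrays below all tg arrays. Among those 4 are the nearly identical wt_1407_5 and wt_1420_7. The means were 11.77 ± 0.10 in tg and 11.62 ± 0.13 in wt, and a difference of 0.16 (SE 0.054, 1.12-fold) did not pass (adjusted p = 0.103). *Apcs* (1419059_at) had 11.83 to 12.59 in tg (median 12.24) and 11.98 to 12.51 in wt (median 12.15). Its difference was -0.0003 (SE 0.099, adjusted p = 0.999, 95% interval -0.21 to 0.21). The *Apcs* window was the only one of the 8 with the STAT-type letters, which occur in 8.3% of all windows.

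Other plasma proteins and regulators of the acute phase were read in the same fit. Of 22 other positive acute phase genes, 2 were higher (9.09%, against 2.98% of all genes) and 1 was lower in tg livers (4.55%, against 0.967%), with a median difference of 0.05. *Itih3*, a heavy chain of inter-alpha-trypsin inhibitor, was higher by 0.28 (SE 0.075, adjusted p = 0.0472), and *Cd14*, the co-receptor for lipopolysaccharide, by 0.31 (SE 0.082, adjusted p = 0.0469). *Hamp2*, a paralog of the hepcidin gene, fell by 0.56 (SE 0.138, adjusted p = 0.0362), on a probe set whose suffix marks possible cross-hybridization. A *Hamp2* probe set without that suffix gave -0.14 (adjusted p = 0.208) and did not pass. These calls lie close to the threshold. *Itih3* kept its call in 6, *Cd14* in 5 and *Hamp2* in 9 of the 20 fits without 1 array. With nearly identical wt arrays averaged, none of them passed (limma adjusted p = 0.109, 0.0896 and 0.100 in the same order). With the label number as a replicate block, *Lbp*, which presents lipopolysaccharide to CD14, passed as a further gene (0.29, adjusted p = 0.0457, against 0.0900 without the block). The fibrinogen genes *Fga*, *Fgb* and *Fgg* differed by 0.05, 0.12 and 0.04 and did not pass. *Hamp*, the iron hormone hepcidin, had 9.18 to 12.25 in tg and 10.52 to 12.29 in wt (-0.53, adjusted p = 0.426). *Lrg1*, a leucine-rich plasma glycoprotein, had a difference of -0.39 (adjusted p = 0.292).

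Of 7 negative acute phase genes, whose products fall in the acute phase, 0 passed in limma, against 3.95% of all genes. At an unadjusted p below 0.05 in limma 1 was lower, where 25.2% of all genes differed in either direction. The Wilcoxon test called 0. The median was 0.02. *Serpina6*, the corticosteroid-binding globulin, had the widest difference (-0.57, adjusted p = 0.202), followed by *Fetub*, encoding fetuin-B (-0.19, adjusted p = 0.314). *Alb* and *Ttr*, encoding albumin and transthyretin, differed by 0.03 and 0.02.

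Of 20 genes of interleukin-6 signalling, 1 was higher (5%, against 2.98% of all genes) and 0 were lower (median 0.07). *Il6st* ranged over 8.60 to 9.15 in tg and 8.27 to 8.78 in wt, and differed by 0.31 (SE 0.072, adjusted p = 0.0270). That call was lost without tg_1420_4 (0.29, adjusted p = 0.0568) and without tg_1423_2-8_1 (0.28, adjusted p = 0.0529), at differences close to the full one. The median over the probe sets of *Il6st* gave 0.19 (adjusted p = 0.237). With nearly identical wt arrays averaged, *Il6st* differed by 0.31 and did not pass (limma adjusted p = 0.07495). *Il6* itself averaged 2.78 ± 0.19 in the 10 tg arrays and 2.62 ± 0.12 in the 8 wt profiles, both below the median of all probe sets. *Socs3*, the feedback inhibitor that STAT3 induces, had 6.03 to 8.55 in tg and 6.37 to 8.67 in wt (-0.62, SE 0.347, adjusted p = 0.323). *Stat3* had -0.05 (adjusted p = 0.730) and *Cebpb*, a C/EBP factor, 0.07 (adjusted p = 0.891). *Lifr*, the receptor chain for leukemia inhibitory factor, had -0.43 (adjusted p = 0.0622) and passed with the replicate block (adjusted p = 0.0448), but its median over all probe sets of the gene was 0.10.

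**Figure D2:**
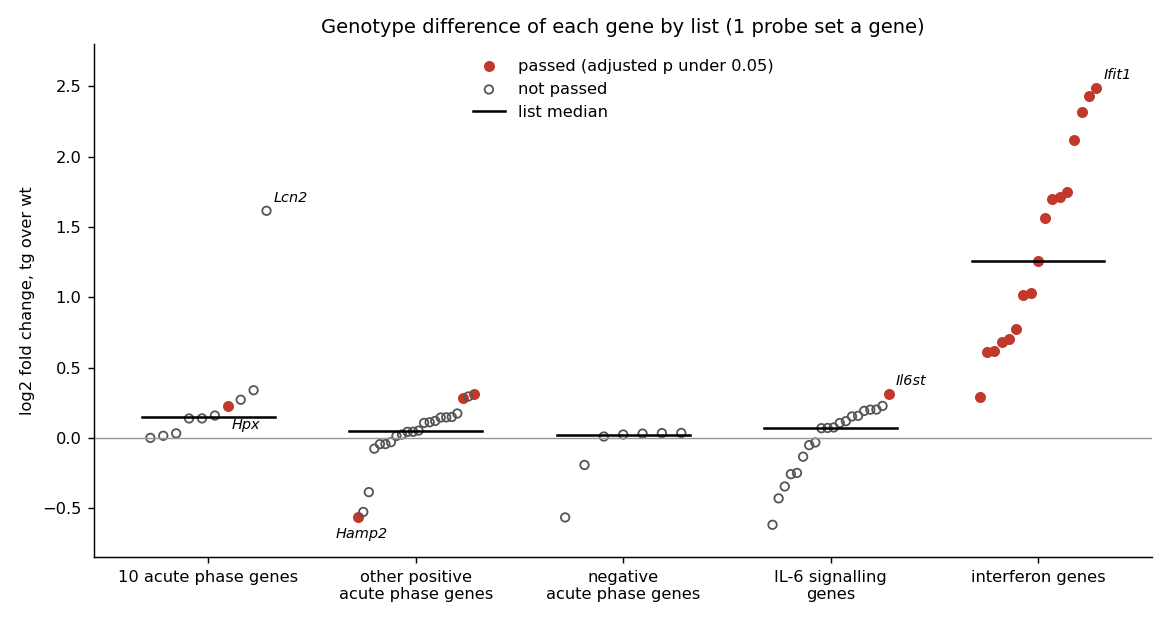
Log2 fold change (tg over wt, y axis) of each gene in 5 lists, ordered by size within its list. Red points passed at an adjusted p below 0.05, open points did not, and black bars are list medians. The interferon genes lie between 0.29 and 2.49, all passed, while the other lists centre near 0, with medians of 0.15, 0.05, 0.02 and 0.07 from the left.

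The interferon genes, a list chosen with earlier results of these data known, are given beside these differences and are no measure of their size. Of the 10 acute phase genes, 6 had a mean over the 90th percentile of all probe set means. Whether array signal limits differences at such high levels was not tested. *Ifit1*, an antiviral RNA-binding protein, was higher by 2.49 (SE 0.323, adjusted p = 0.000441), *Rsad2*, encoding viperin, by 2.43 (SE 0.329, adjusted p = 0.000544) and *Irf7*, the transcription factor that amplifies interferon production, by 1.56 (SE 0.178, adjusted p = 0.000276). The mean over the 17 genes was 7.53 to 9.03 in tg and 6.64 to 7.51 in wt arrays, so that all 10 tg arrays lay above all wt arrays. Without the tg_1423_2-8 and wt_1423_2-8 arrays 10 of 17 passed. The mean over the 10 acute phase genes was 10.15 to 10.62 in tg and 9.67 to 10.37 in wt arrays, with 5 tg arrays above all wt arrays. Without *Lcn2*, a setting added after the data were seen, the mean of the other 9 was 10.45 to 10.86 in tg and 10.19 to 10.86 in wt arrays. Then 1 tg array, tg_1407_3, reached 10.8623 and the highest wt array 10.8621, and the other tg arrays lay within the wt range.

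Within each genotype, livers with a higher interferon mean were compared with the acute phase genes, in 19 relations. *Lcn2* in tg was left out because its values fall into separate sets. None of the relations passed after Benjamini-Hochberg adjustment (lowest adjusted p = 0.112 for r). Over the 10 tg livers, *Hpx* had r = 0.77 (permutation p = 0.0107) and ρ = 0.66 (p = 0.0434, permutation), but r = 0.49 without the 2 livers farthest from the median interferon mean, so its size rests on those. It was 0.87 without the tg_1423_2-8 arrays (permutation p = 0.0029), 0.69 without tg_1386_9 (permutation p = 0.0387) and 0.75 against *Irf7* alone in place of the interferon mean (permutation p = 0.0108), none of these adjusted. *Saa1* in the same livers had r = -0.23 (permutation p = 0.518) and ρ = -0.30, and *Saa2*, *Saa3*, *Orm1*, *Orm2* and *Hp* had r between -0.37 and -0.15. Over the 8 wt profiles, r was 0.81 for *Saa1* (exact permutation p = 0.0227, ρ = 0.74), 0.79 for *Saa2* (p = 0.0237, exact, ρ = 0.71), 0.81 for *Saa3* (p = 0.0173, exact, ρ = 0.79) and 0.73 for *Orm2* (p = 0.0393, exact, ρ = 0.81). Against *Irf7* alone in place of the interferon mean, these 4 wt relations gave r = 0.30, 0.29, 0.67 and 0.24 in the same order, with exact permutation p of 0.446, 0.469, 0.0775 and 0.574. Whether the relations differ between the genotypes was not tested.

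**Figure D3:**
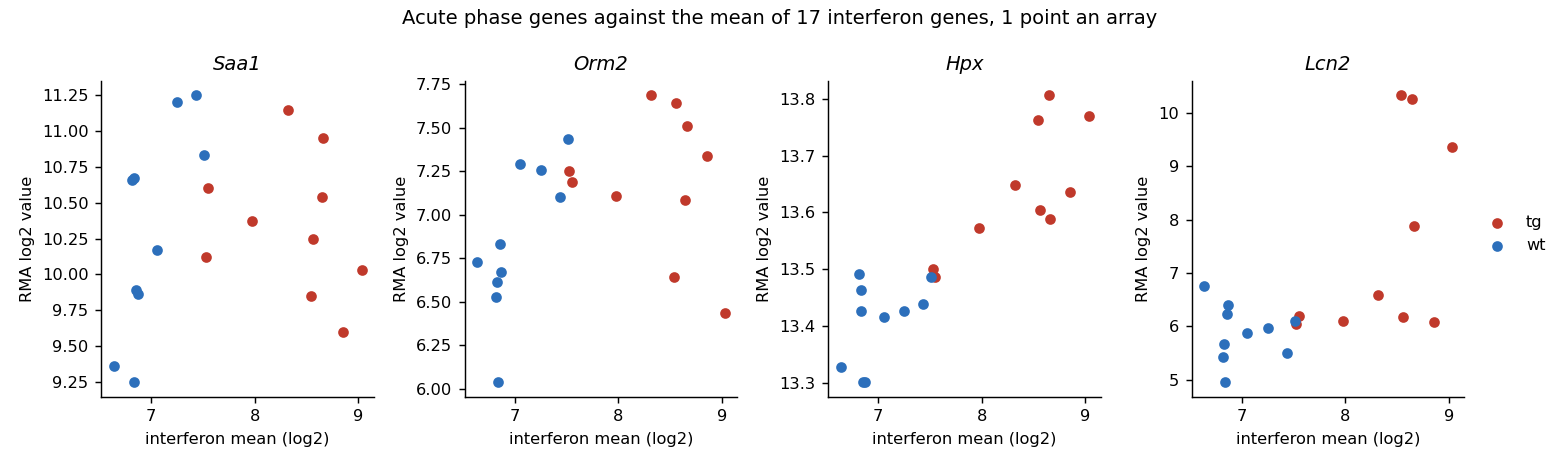
RMA log2 value of *Saa1*, *Orm2*, *Hpx* and *Lcn2* (y axes) against the log2 mean of 17 interferon genes (x axes), 1 point per array, tg in red and wt in blue. The tg arrays lie to the right of all wt arrays, and *Saa1* reaches its highest values in wt arrays.

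Among the acute phase genes themselves, 81 pairs were compared within the genotypes. *Saa1* and *Saa2* moved together, with r = 0.85 in tg (n = 10, permutation p = 0.00205, adjusted p = 0.083, ρ = 0.83) and r = 0.97 in wt (n = 8, exact permutation p = 4.96e-05, adjusted p = 0.00402, ρ = 0.98). Without the 2 livers farthest from the *Saa1* median, r was 0.83 in tg and 0.96 in wt. Since the genes are near-identical over much of their length, probes may read both. The wt pair was the only 1 of the 81 to pass. *Hp* and *Hpx* had r = -0.68 in tg (permutation p = 0.0272) and 0.93 in wt (exact permutation p = 0.00345), and neither held without the 2 farthest livers (-0.11 and 0.47).

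The genes outside the 10 with the most similar pattern were found over the 20 arrays after removal of the genotype means, among 11765 genes, as a description. For *Hpx* these were *Eppk1*, encoding the cytoskeletal linker epiplakin (r = 0.91), *Spats2l* (0.91) and *Marveld2*, encoding the tight-junction protein tricellulin (0.89). *Eppk1* was higher in tg by 0.86 (adjusted p = 0.0302) and *Spats2l* by 1.48 (adjusted p = 0.0227). For *Lcn2* they were *Pls1*, encoding the actin bundler plastin 1, *Slc22a18* and *Lars2*, all at r = 0.96. With 3 arrays far above the rest, a high r for *Lcn2* mainly says that a gene was also high or low in those arrays. For *Saa1* they were *Mocos*, *Malat1* and *Ces2b* (0.80, 0.80 and 0.79), and for *Orm1* *Tars*, *Ubqln1* and *Coq8a* (0.95, 0.94 and 0.94). *Orm2* was closest to *Trim30d* (0.82), *Hp* to *Zfp622* (0.90), *Crp* to *Hsd3b3* (0.78), *Apcs* to *Tifa* (0.84), *Saa2* to *Ces2b* (0.77) and *Saa3* to *Zmym3* (0.75).

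Arrays that share a label number were compared within it. The numbers are not separate comparisons, because wt_1407_2 and wt_1407_5 are nearly identical to wt_1420_6 and wt_1420_7. Likewise, tg_1386_9 closely resembles wt_1386_4. *Lcn2* was higher in tg in 6 of 6 numbers, but by 0.09 in tg_1386 against wt_1386 and by 4.44 in tg_1423_2-8 against wt_1423_2-8. *Hp* was higher in 6 of 6 (0.04 to 0.27), and *Hpx* in 5 of 6, with no difference in the tg_1386 and wt_1386 arrays and 0.41 in the tg_1423_2-8 and wt_1423_2-8 arrays. *Crp* and *Saa3* were higher in 5 of 6, *Orm1* and *Orm2* in 4, *Saa2* and *Apcs* in 3, and *Saa1* in 2. *Saa1* differed by -0.88 between tg_1371 and wt_1371 and by -0.62 between tg_1420 and wt_1420, but by 0.78 between tg_1407 and wt_1407 and by 0.89 between tg_1423_2-8 and wt_1423_2-8. A test of whether the genotype difference varies between the numbers, added after the data were seen, passed for none of the 10 genes. The adjusted p was 0.737 for *Saa1* and 0.847 for *Lcn2* (limma F test, 5 terms), at unadjusted p of 0.0411 and 0.0769, and 0.0155% of all probe sets passed.

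**Figure D4:**
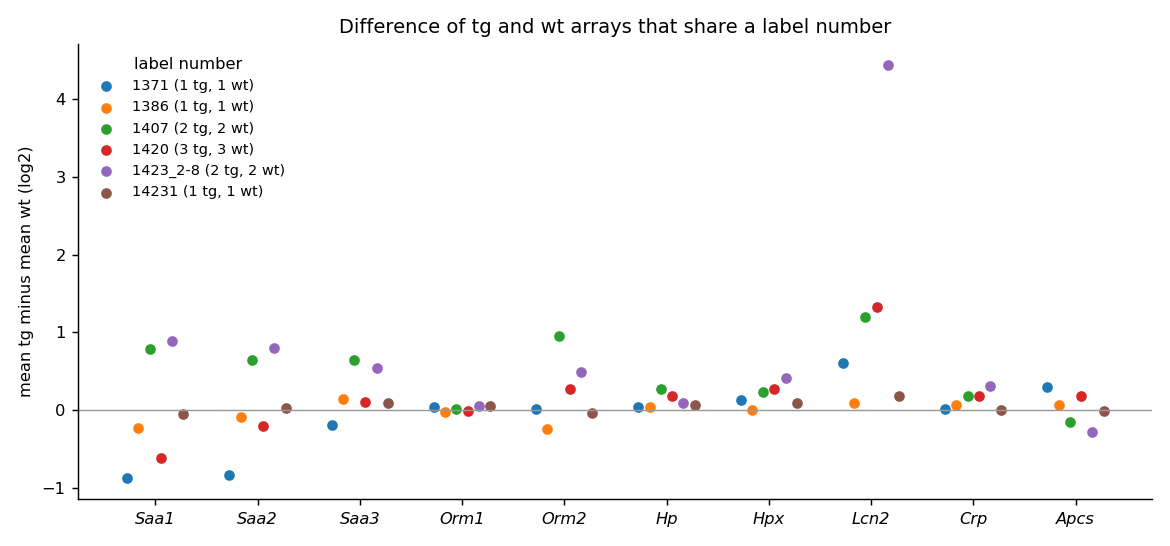
Difference of the tg mean and the wt mean (log2, y axis) among arrays that share a label number, for each acute phase gene (x axis), 1 colour per number. *Saa1* and *Saa2* lie on both sides of 0, and *Lcn2* ranges from 0.09 to 4.44.

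Other lists were read beside these results. Macrophage markers moved with genotype. Of 10, 7 were higher in tg (70%, against 2.98% of all genes, median 0.55), among them *Clec4f* and *Cd5l*, both known from Kupffer cells (0.60 and 0.79). Their list mean was 8.09 to 8.85 in tg and 7.74 to 8.40 in wt arrays, and 4 of 10 passed in the Wilcoxon test. None passed in limma without the tg_1423_2-8 and wt_1423_2-8 arrays (0 of 10), nor without the 3 tg arrays high in *Lcn2* (0 of 10). Few probe sets of any kind passed in these 2 fits (74 and 166 of 45101, against 1149 in the full fit). The loss is therefore not particular to these markers. Their part in the values of *Saa3*, *Cd14* and the other genes was not tested. In limma 0 of 8 hepatocyte markers passed (1 higher and 1 lower at an unadjusted p below 0.05), as did 0 of 3 adipose markers (0 unadjusted), 0 of 10 endoplasmic reticulum stress genes (2 higher unadjusted) and 0 of 8 glucocorticoid response genes (0 unadjusted). The Wilcoxon test called 0 in each of these 4 lists. Of all probe sets, 1149 passed in limma, 850 higher and 299 lower in tg, and 2241 with the replicate block. Array medians lay between 4.46 and 4.55.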

How the data were processed

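Total RNA of 20 livers (10 tg, 10 wt) was hybridized to Affymetrix Mouse Genome arrays. The authors' values, deposited on a log2 scale after RMA normalization, cover 45101 probe sets and were used as they are. The sources used here name no RMA version, and 0 columns were left without a sample. Array annotation gave 1 symbol to 34958 probe sets, several to 932 and none to 9211. The probe set with the highest mean among those of 1 gene alone stands for a gene, which leaves 18194 genes.

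limma 3.58.1 in R 4.3.3 fitted genotype to all 20 arrays, with Benjamini-Hochberg adjustment over all probe sets and 0.05 as the threshold. Permutation tests (100000 draws, or all 43758 splits) used scipy 1.17.1 and numpy 2.4.6 under Python 3.11.15, and figures used matplotlib 3.10.9. Confidence intervals are 95%. The limma fit was tested on simulated data of independent arrays, without nearly identical arrays or label numbers. All 10 genes are named with every probe set. Of the other lists, genes past the threshold or among the 3 largest differences could be named. The genes and lists were chosen with earlier results of these data known. *Lbp*, *Stat3*, *Cebpb*, *Il6*, the fibrinogen genes, *Alb*, *Ttr* and the neutrophil markers are named beyond this rule, after their values were seen.

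Arrays of the 2 genotypes that share a label number deviated together from the genotype means (r = 0.175 to 0.429 in 6 of 6 numbers, highest for the own number in 5), so the number was fitted as a replicate block as an alternative. As a random block its consensus correlation was 0.082. Promoter windows are from RefSeq (GRCm38.p6), with 8 of the 10 genes matched. *Orm1* and *Hp* have no window here. Alternatives were other normalizations, filters, arrays left out, covariates, weights and a Wilcoxon test.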

Additional observations from a re-analysis of the deposited data

Results flagged for a closer look

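Among 42 sets of values checked for 1 array far from the rest (each gene and list mean within each genotype), 1 stood apart, and chance alone flags about 1 in 20 such sets. The mean of the 7 negative acute phase genes was 13.35 in wt_1423_2-8_9, where the next wt value was 13.02.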

How the results depend on the processing

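The count of 1149 probe sets past the threshold was 2241 with the label number as a replicate block, 1791 with it as a random block, 762 with array weights, 736 without probe sets of suffix _x_at, _s_at or _a_at, 276 with nearly identical wt arrays averaged, 568 when tg_1386_9 and wt_1386_4 were also left out (added after seeing the data), 74 without the tg_1423_2-8 and wt_1423_2-8 arrays, 166 without tg_1420_4, tg_1423_2-8_1 and tg_1423_2-8_4, and 463 to 2460 without 1 array. The count of 1 acute phase gene was 0 without the 4 tg_1423_2-8 and wt_1423_2-8 arrays and 0 without the 3 tg arrays, and 1 in each of the other 14 alternatives and all 20 fits without 1 array. *Hpx* had an adjusted p of 0.0477 with the nearly identical arrays averaged. The 17 interferon genes were 10 without these 4 arrays and 16 to 17 without 1 array. The 3 other positive acute phase genes were 1 with array weights, 1 by the Wilcoxon test, 0 with nearly identical arrays averaged (also with tg_1386_9 and wt_1386_4 left out), 0 without these 4 arrays, 0 without the 3 tg arrays, 0 without probe sets of suffix _x_at, _s_at or _a_at, and 0 to 3 without 1 array. The 1 gene of interleukin-6 signalling was 2 with either block, 2 among probe sets above the median mean, 2 without tg_1386_9 and wt_1386_4, 0 with nearly identical arrays averaged (also with tg_1386_9 and wt_1386_4 left out), 0 without these 4 arrays, 0 without the 3 tg arrays, 0 by the median over probe sets, and 0 to 2 without 1 array. The 7 macrophage markers were 0 without these 4 arrays, 0 without the 3 tg arrays, 4 by the Wilcoxon test and 5 to 9 without 1 array. The cause was not tested, other than fewer arrays or probe sets.

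Some differences changed sign, those of the acute phase genes from values within 1 SE of 0. *Saa1* was -0.0049 after renewed quantile normalization, -0.0374 with array weights, -0.18 without these 4 arrays and -0.0868 to 0.1357 without 1 array. *Saa2* was -0.0257 without these 4 arrays. *Orm1* was -0.0302 to 0.0481 without 1 array. *Apcs* was 0.0234 with arrays centred on their medians, 0.0341 with array weights, 0.0049 with *Xist* as a covariate, 0.0281 with nearly identical arrays averaged (0.0233 with tg_1386_9 and wt_1386_4 also left out, 0.0281 in the exact test), 0.0705 without these 4 arrays, 0.0784 without the 3 tg arrays and -0.0429 to 0.0416 without 1 array. *Lifr*, at -0.43 on its brightest probe set (suffix _a_at), was 0.10 without probe sets of suffix _x_at, _s_at or _a_at. By the median over probe sets *Lifr* was also 0.10. The replicate block changed no call other than those of *Lbp* and *Lifr* among the genes named here with their own alternatives.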
